A study of Mus musculus with 4 samples.

Results

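Matrix metalloproteinases (MMPs) and their tissue inhibitors (TIMPs) were followed in peritoneal macrophages as 6 protease genes, Mmp8, Mmp9, Mmp12, Mmp13, Mmp14 and Mmp19, and 3 inhibitor genes, Timp1, Timp2 and Timp3. These 9 of the 18193 genes with a probe set on the array were chosen by name, with earlier results of these data known, and every probe set whose single symbol was one of these names was used, which gave 21 of 45037 probe sets. The data are from 4 conditions with 1 Affymetrix array each: KO macrophages with lipid A, WT macrophages with lipid A, KO macrophages with vehicle and WT macrophages with vehicle, all for 4 h. KO stands for LysM Cre/+:Setdb1 fl/fl mice and WT for +/+:Setdb1 fl/fl mice, so both genotypes carried the floxed Setdb1 alleles and only KO carried the Cre. LysM Cre acts in the myeloid lineage, neutrophils included, and with no Cre in WT the effect of the Cre and that of the deletion cannot be told apart. The strain in the labels is C57BL6/J, and neither the age of the mice nor how many were pooled for an array is given in the sources used here. The cells had been elicited with thioglycollate, an irritant that draws monocytes into the peritoneal cavity, and were then selected by attachment. Lipid A is the part of bacterial lipopolysaccharide that Toll-like receptor 4 recognizes, and its concentration is 10 ng/ml in the design text but 10 µg/ml in the sample labels.

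MMPs are zinc proteases that cut collagens, elastin, other matrix proteins and many secreted signaling proteins. Most are secreted as inactive proenzymes in which a cysteine of the propeptide blocks the zinc, and they become active when the propeptide is removed. TIMPs bind the active site of the mature enzymes and block them, and Timp2 also takes part in the activation of the Mmp2 proenzyme by Mmp14 at the cell surface. In macrophages these proteases are known for matrix turnover, for migration through tissue and for the processing of chemokines and cytokines.

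Because each condition has 1 array, no difference below has a replicate check, and no test is given. A signal below the median of its array (75.8 in KO lipid A and 74.8 in WT lipid A, and 84.2 in KO vehicle and 65.1 in WT vehicle) counted as background, and any fold against such a signal is given as a lower bound against that median. For each comparison, genes whose higher signal was at or above the median of its own array were taken as detected. Calls past a threshold and their counts use the ratio as measured, also where 1 of the signals is background, and there the lower bound can be below the threshold. The yardstick for the folds is the spread between probe sets of the same gene, an SD of 1.33-fold for KO over WT under lipid A, 1.34-fold for KO over WT under vehicle, 1.38-fold for lipid A over vehicle in KO and 1.31-fold for lipid A over vehicle in WT. This spread is technical and does not hold differences between mice or arrays. The array medians differed by 0.37 on the log2 scale between KO vehicle and WT vehicle and by 0.20 for the WT arrays (lipid A over vehicle), and folds in these comparisons are to be read beside those shifts. Setdb1, the H3K9 methyltransferase gene that was targeted, gave 386 in KO lipid A and 521 in WT lipid A, and 346 in KO vehicle and 589 in WT vehicle, from the 1 of its 3 probe sets that was above background, and whether this probe set lies in the deleted part is not known here. All 7 macrophage markers were at or above the median on every array. Their KO over WT log2 differences ran from -0.83 to 0.98 under lipid A and from -1.45 to 0.96 under vehicle. The lowest under vehicle was Adgre1, with 3726 in KO vehicle and 10187 in WT vehicle.

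The signal of Mmp13 was higher in KO than in WT with and without lipid A, whereas that of Mmp8 was lower in KO with and without it, and Mmp14 was low in KO vehicle alone. Timp1 was high in KO lipid A alone. Mmp12, Mmp19 and Timp2 differed by less than 2-fold between the genotypes, Mmp9 was close to background, and the brightest probe set of Timp3 was below the median on every array. Of the 9 members, 7 were at or above the median on all 4 arrays, Mmp9 on 3 and Timp3 on 0, each by its brightest probe set.

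**Figure D1:**
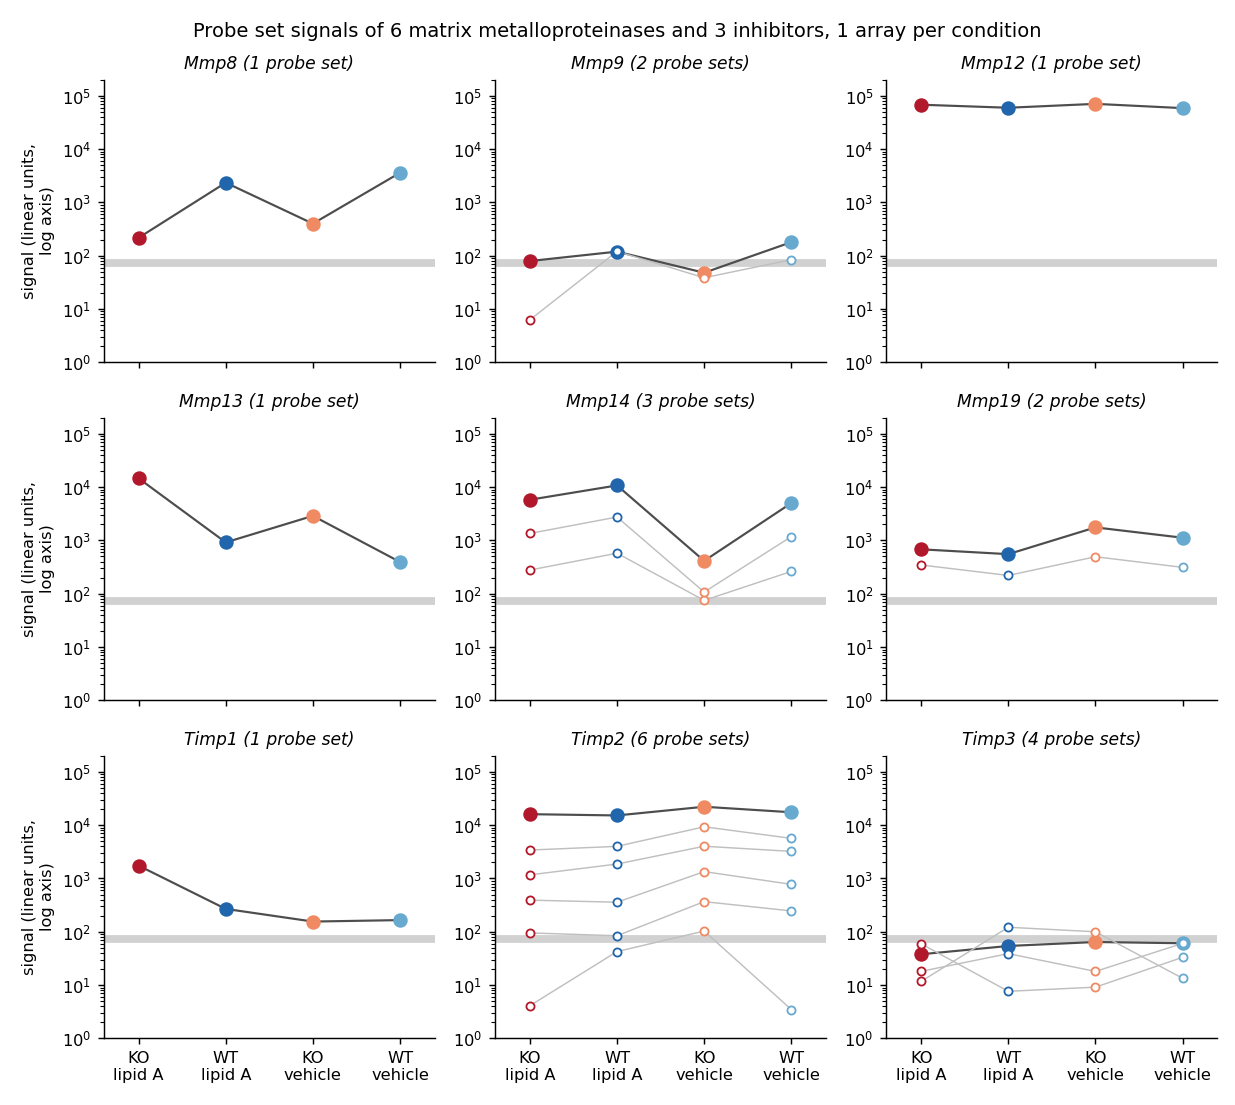
Signals of the 21 probe sets of the 9 genes on a log axis, in KO lipid A, WT lipid A, KO vehicle and WT vehicle, with the brightest probe set of each gene filled and joined by a dark line, the others open and joined by light lines, and the lines only linking values of 1 probe set. The grey band spans the medians of the 4 arrays, from 65.1 to 84.2, and Mmp13 reaches 14612 in KO lipid A against 919 in WT lipid A.

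The study used 2-fold for a rise with lipid A in WT, and 3-fold for a further rise in KO among those genes. Here these folds were applied in both directions, under each treatment and to all detected genes. The threshold was thus 3-fold between genotypes and 2-fold for lipid A. In KO lipid A over WT lipid A 3 of the 8 detected members were past it, with Mmp13 and Timp1 higher and Mmp8 lower. Of all detected genes, 6.35% were higher there and 5.73% lower (12.1% in all). In KO vehicle over WT vehicle 4 of 8 were past it, with Mmp13 higher and Mmp8, Mmp9 and Mmp14 lower, where 6.28% of detected genes were higher and 3.65% lower (9.93% in all). The call of Mmp9 there is by the measured ratio against a background signal, and its lower bound of 2.13-fold is under the threshold. In KO lipid A over KO vehicle 4 of 8 were past it, with Mmp13, Mmp14 and Timp1 higher and Mmp19 lower, where 11.2% of detected genes were higher and 16% lower (27.2% in all). In WT lipid A over WT vehicle 3 of 8 were past it, with Mmp13 and Mmp14 higher and Mmp19 lower, where 11.8% of detected genes were higher and 8.94% lower (20.7% in all). The members were chosen with these differences in view, so their counts are a description and not a result about the family. Of the genes called in either direction, 63.3% were higher in KO vehicle over WT vehicle and 56.9% in WT lipid A over WT vehicle, and with each array divided by its median these shares were 49.1% and 44.3%.

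**Figure D2:**
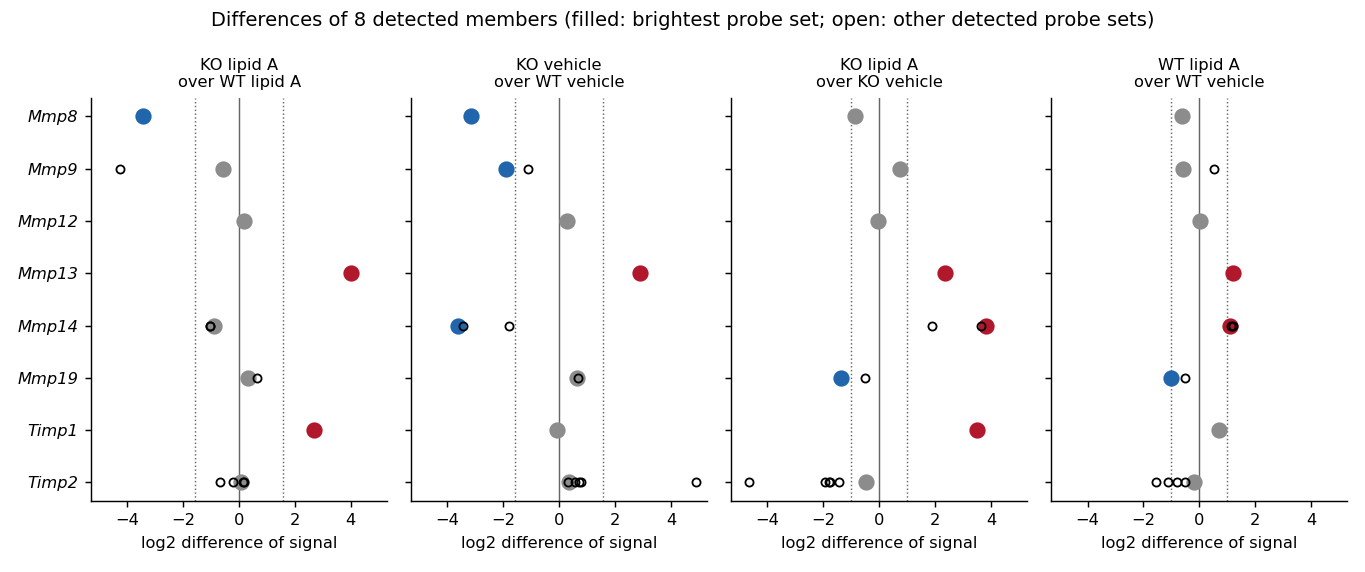
Log2 difference of signal for the 8 detected members in 4 comparisons, with the brightest probe set filled (red past the threshold upwards, blue past it downwards, grey not past it), other detected probe sets open, and dotted lines at 3-fold for the genotype comparisons and 2-fold for the lipid A comparisons. Mmp13 lies at 3.99 and Mmp8 at -3.43 in KO lipid A over WT lipid A.

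Mmp13 and Mmp8 encode interstitial collagenases, the enzymes that make the initial cut in fibrillar collagen, and their signals differed between genotypes in opposite directions. Mmp13, or collagenase-3, which in rodents does much of the work that MMP1 does in humans, had 1 probe set. Its signal was 14612 in KO lipid A and 919 in WT lipid A, and 2892 in KO vehicle and 394 in WT vehicle. Each KO array was thus above each WT array, and the lipid A array of each genotype was above its vehicle array. The KO over WT ratio was 15.9-fold under lipid A and 7.34-fold under vehicle, and the lipid A over vehicle ratio was 5.05-fold in KO and 2.33-fold in WT. On the log2 scale the lipid A response of KO exceeded that of WT by 1.11. Among detected genes, 160 had a higher KO over WT difference under lipid A than Mmp13 and 298 under vehicle.

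Mmp8, or collagenase-2, is best known from the granules of neutrophils and is also made by monocytes and macrophages. Its single probe set gave 217 in KO lipid A and 2346 in WT lipid A, and 399 in KO vehicle and 3599 in WT vehicle. Both KO arrays were below both WT arrays, by 10.8-fold under lipid A and 9.01-fold under vehicle. Lipid A went with a lower signal in each genotype, by 1.84-fold in KO and 1.53-fold in WT, and neither ratio was past the threshold. The lipid A responses of the genotypes differed by -0.26 on the log2 scale (KO minus WT), and by 0.089 with each array divided by its median, both less than the spread between probe sets of a gene (0.46 in KO and 0.39 in WT).

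Since Mmp8 and Mmp9 are also neutrophil transcripts, the neutrophil markers were read beside them. Of 11 listed markers 9 had a probe set, and 3 reached the median in KO lipid A and 3 in WT lipid A, and 5 in KO vehicle and 4 in WT vehicle. Their summed signal was 2511 in KO lipid A and 2748 in WT lipid A, and 2122 in KO vehicle and 2700.3 in WT vehicle. S100a8, an abundant calcium-binding protein of neutrophils and monocytes, gave 676 in KO lipid A and 1721 in WT lipid A, and 569 in KO vehicle and 1727 in WT vehicle. Csf3r, the receptor of granulocyte colony-stimulating factor, was the only other of the 9 above background on all 4 arrays. It was higher in KO, with 1583 in KO lipid A and 731 in WT lipid A, and 1083 in KO vehicle and 753 in WT vehicle. The ratios of Csf3r, 2.16-fold under lipid A and 1.44-fold under vehicle, were not past 3-fold. Its log2 difference of 0.52 under vehicle is to be read beside the shift of 0.37 between the array medians. By the measured ratio 0 of 4 detected markers were past 3-fold under lipid A, and under vehicle 2 of 6 were higher in KO and 2 lower. The granule genes Elane (106 in KO vehicle and 16.9 in WT vehicle) and Ltf (99.7 in KO vehicle and 11.3 in WT vehicle) were the higher pair. S100a8 and Camp were the lower one, with a background signal in 1 genotype for each of these genes but S100a8. The lower bounds of Elane and Ltf were 1.63-fold and 1.53-fold, under the threshold, and for Camp no direction remains against the median. Elane and Ltf were below the median on the other 3 arrays, and S100a9 and Cxcr2 on all 4. Of the markers above background on all 4 arrays, S100a8 thus ran with Mmp8 (2.55-fold lower in KO under lipid A and 3.03-fold under vehicle). Csf3r ran against Mmp8 by smaller ratios, and the part of these cells in the Mmp8 difference was not tested. In RNA of whole cultures, fewer cells of a type and less RNA per cell cannot be told apart.

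The promoters of the members that differed most are shown next, and their part in the differences was not tested. Windows from RefSeq (GRCm38.p6) were used for 7 of the 9 members, 8 in all, and those of Mmp9 and Mmp19 were not analysed here. The 250 bases before the start were searched on both strands for AP-1 (TGANTCA), the PEA3/Ets site (AGGAAG), the TATA box (TATAAA), the GC box (GGGCGG) and the NF-κB consensus. Each window is printed on the strand of its gene, capitals mark every match on either strand, and no matches overlapped.
Mmp13, chr9:7272264-7272513, plus strand: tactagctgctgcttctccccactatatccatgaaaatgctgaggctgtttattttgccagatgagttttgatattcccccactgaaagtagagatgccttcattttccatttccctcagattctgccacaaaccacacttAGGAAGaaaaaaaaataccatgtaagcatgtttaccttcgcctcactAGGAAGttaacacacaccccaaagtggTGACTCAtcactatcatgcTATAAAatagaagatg
Mmp8, chr9:7558179-7558428, plus strand: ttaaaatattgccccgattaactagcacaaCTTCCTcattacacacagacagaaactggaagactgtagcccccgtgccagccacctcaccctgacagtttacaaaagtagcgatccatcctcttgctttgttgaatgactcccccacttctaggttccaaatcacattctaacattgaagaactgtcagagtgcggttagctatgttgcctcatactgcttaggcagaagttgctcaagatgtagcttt
Mmp14, chr14:54431348-54431597, plus strand: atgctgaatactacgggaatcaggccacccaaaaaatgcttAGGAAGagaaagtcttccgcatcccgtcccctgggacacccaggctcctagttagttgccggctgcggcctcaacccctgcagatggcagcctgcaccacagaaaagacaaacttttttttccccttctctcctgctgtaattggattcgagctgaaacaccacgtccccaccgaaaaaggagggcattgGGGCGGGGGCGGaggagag
Timp1, chrX:20869916-20870165, plus strand: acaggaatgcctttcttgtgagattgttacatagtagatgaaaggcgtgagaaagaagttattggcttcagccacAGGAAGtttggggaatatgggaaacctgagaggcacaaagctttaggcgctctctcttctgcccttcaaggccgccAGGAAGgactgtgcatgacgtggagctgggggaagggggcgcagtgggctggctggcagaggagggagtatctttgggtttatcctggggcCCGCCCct
The Mmp13 window held an AP-1 match 35 to 29 bases before the start, PEA3/Ets matches at 109 to 104 and at 62 to 57 bases, and a TATA box at 16 to 11 bases. AP-1 was found in 2 of the 7 members with a window, Mmp13 and 1 of the 2 windows of Mmp12 (44 to 38 bases before the start), and in 6.75% of all 32851 windows. The Mmp8 window held only a PEA3/Ets match on the opposite strand, 220 to 215 bases before the start, a site found in 6 of 7 members and in 29.5% of all windows. Mmp14 had GC boxes at 19 to 14 and at 13 to 8 bases besides a PEA3/Ets match at 209 to 204 bases, and Timp1 had PEA3/Ets matches at 175 to 170 and at 99 to 94 bases and a GC box on the opposite strand at 8 to 3 bases. The GC box was found in 4 of 7 members and in 32.7% of all windows, the TATA box in 1 of 7 and in 12.4%, and the NF-κB consensus in 0 of 7 and in 3.90%. These are matches of letters, and no binding was measured here.

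AP-1, the dimer of Fos and Jun proteins that activates several MMP genes in other cells, was read as a list of 8 subunit genes, of which 7 were detected in each comparison. Under lipid A, Fosl1 was at least 2.31-fold higher in KO than in WT (173 against 56.6, a background signal), which is a call by the measured ratio only, and Fos was 3.23-fold lower (243 against 786). Under vehicle 0 of the 7 were past 3-fold, and Fos gave 3640 in KO and 1416 in WT. Junb was 3.73-fold higher with lipid A in KO (2199 against 590) and 2.37-fold higher with lipid A in WT (1190 against 503), while Jun was lower with lipid A in each genotype. The order of the 4 arrays for Mmp13 was KO lipid A, KO vehicle, WT lipid A, WT vehicle. The measured signals of 1 of the 7, Atf3, singled out after its values were seen, had the same order. Atf3 gave 16119 in KO lipid A and 10519 in WT lipid A, and 12371 in KO vehicle and 10301 in WT vehicle. On the log2 scale it differed by 0.26 between genotypes under vehicle and by 0.030 with lipid A in WT. Both values are within the spread between probe sets of a gene (0.42 and 0.39). Both are also below the shifts of the array medians (0.37 and 0.20), so the order for Atf3 is not settled.

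Mmp13, Mmp12 and Mmp8 lie in 1 cluster of 10 MMP genes on chromosome 9, with Dcun1d5 on 1 side and Tmem123 on the other. In the order of the RefSeq genes the cluster reads Mmp13, Mmp12, Mmp1b, Mmp3, Mmp1a, Mmp10, Mmp8, Mmp27, Mmp20 and Mmp7. Of the 9 with a probe set of their own symbol, these 3 members were at or above the median on all 4 arrays and 5, Mmp1b, Mmp3, Mmp1a, Mmp10 and Mmp20, on none. Mmp7, or matrilysin, gave 121 in KO lipid A and 108 in WT lipid A, and background signals of 12.7 in KO vehicle and 56.6 in WT vehicle. The large genotype differences were thus seen at Mmp13 and Mmp8 with Mmp12, the direct neighbor of Mmp13, between them at a nearly even signal.

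**Figure D3:**
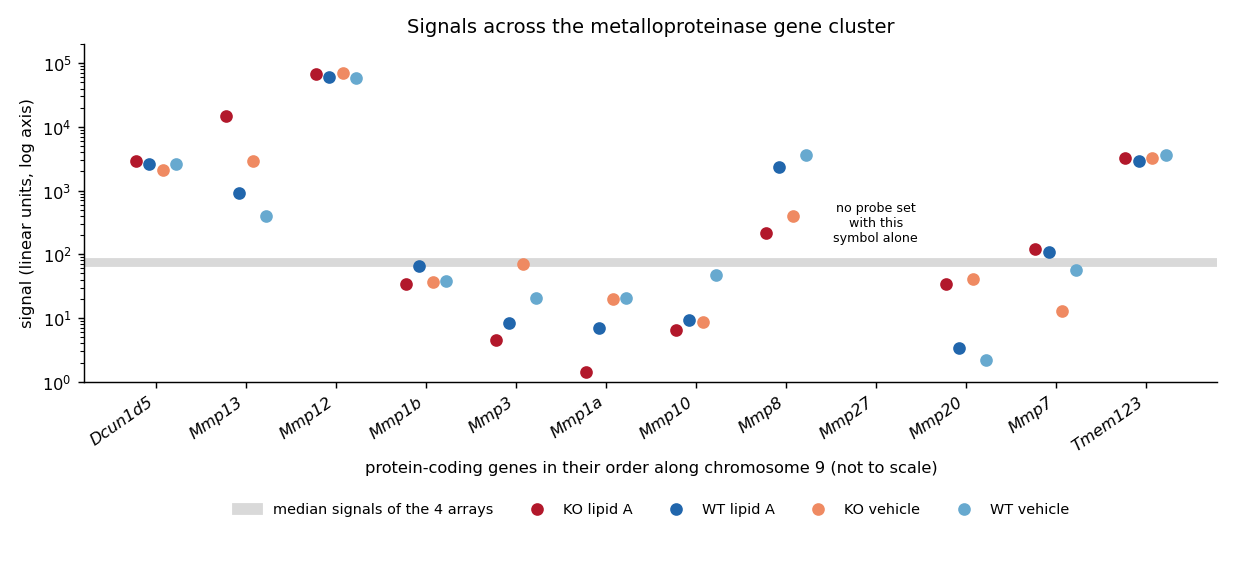
Signals on a log axis of the 10 MMP genes of the chromosome 9 cluster and the gene on each side, in chromosomal order and not to scale, with 1 point for each of the 4 arrays and a grey band over the array medians. Mmp13, Mmp12 and Mmp8 stand above the band on all 4 arrays, and 5 MMP genes stay below their array medians throughout.

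Mmp12 encodes macrophage metalloelastase, an enzyme typical of elicited and alveolar macrophages that degrades elastin. Its single probe set gave 67986 in KO lipid A and 59634 in WT lipid A, and 70554 in KO vehicle and 58675 in WT vehicle. The KO over WT log2 difference was 0.19 under lipid A and 0.27 under vehicle, less than the spread between probe sets of a gene (0.41 and 0.42), and with each array divided by its median the value under vehicle turned to -0.10. With highest signals of 103593 to 126693 on the arrays, Mmp12 stood near the upper end of the range, and whether such signals still rise with the amount of RNA was not tested.

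Mmp9, or gelatinase B, cuts denatured collagen and type IV collagen of basement membranes and is stored in neutrophil granules. The brighter of its 2 probe sets gave 79.5 in KO lipid A and 119 in WT lipid A, and 48 in KO vehicle and 179.7 in WT vehicle. The other gave 6.27 in KO lipid A and 121 in WT lipid A, and 38.6 in KO vehicle and 84.1 in WT vehicle. The brighter probe set was thus lower in KO under each treatment, and 1 of the 4 KO signals, 79.5, was above its array median. By the brighter probe set Mmp9 was at least 2.13-fold lower in KO vehicle than in WT vehicle and 1.502-fold lower under lipid A, and the other gave at least 1.59-fold lower under lipid A. Under vehicle the other probe set gives no direction, since its WT signal of 84.1 is level with the KO vehicle median of 84.2. In WT, lipid A went with a lower signal by 1 probe set (1.505-fold) and a higher one by the other (1.43-fold), so no direction can be given.

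Lcn2 encodes lipocalin-2, a siderophore-binding protein that can form a complex with Mmp9, and its signal was lower in KO as well. It gave 327 in KO lipid A and 983 in WT lipid A, and 90.4 in KO vehicle and 786 in WT vehicle. The ratios were 3.01-fold lower in KO under lipid A and 8.69-fold lower under vehicle, and lipid A over vehicle was 3.61-fold in KO and 1.25-fold in WT. Lcn2 had 1 probe set, and like Mmp9 it is also a granule protein of neutrophils.

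Mmp14 encodes MT1-MMP, a protease anchored in the cell membrane that cuts collagen at the cell front and activates the Mmp2 proenzyme. Its brightest probe set gave 5802 in KO lipid A and 10767 in WT lipid A, and 414 in KO vehicle and 5026 in WT vehicle. The KO vehicle array stood alone, far below the other three. The signal was 12.2-fold lower in KO than in WT under vehicle and 1.86-fold lower under lipid A. Lipid A over vehicle was 14.0-fold in KO and 2.14-fold in WT, a difference between the responses (KO minus WT) of 2.71 on the log2 scale, and the WT ratio no longer passed 2-fold with each array divided by its median.

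The other 2 probe sets of Mmp14 showed the same order of arrays. The middle one gave 1353 in KO lipid A and 2749 in WT lipid A, and 108 in KO vehicle and 1181 in WT vehicle, and the dimmest gave 278 in KO lipid A and 576 in WT lipid A, and 75.1 in KO vehicle and 262 in WT vehicle. Under vehicle they were 11.0-fold and at least 3.12-fold lower in KO, and under lipid A 2.03-fold and 2.07-fold lower. The KO response over the WT response was 2.43 and 0.59 on the log2 scale, the lower value being from the probe set with a background signal in KO vehicle, counted against the array median. Under vehicle, 99 detected genes had a lower KO over WT difference than Mmp14. Mmp2, the gelatinase A that Mmp14 activates, reached the median only in WT lipid A, at 133, against 7.96 in KO lipid A.

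**Figure D4:**
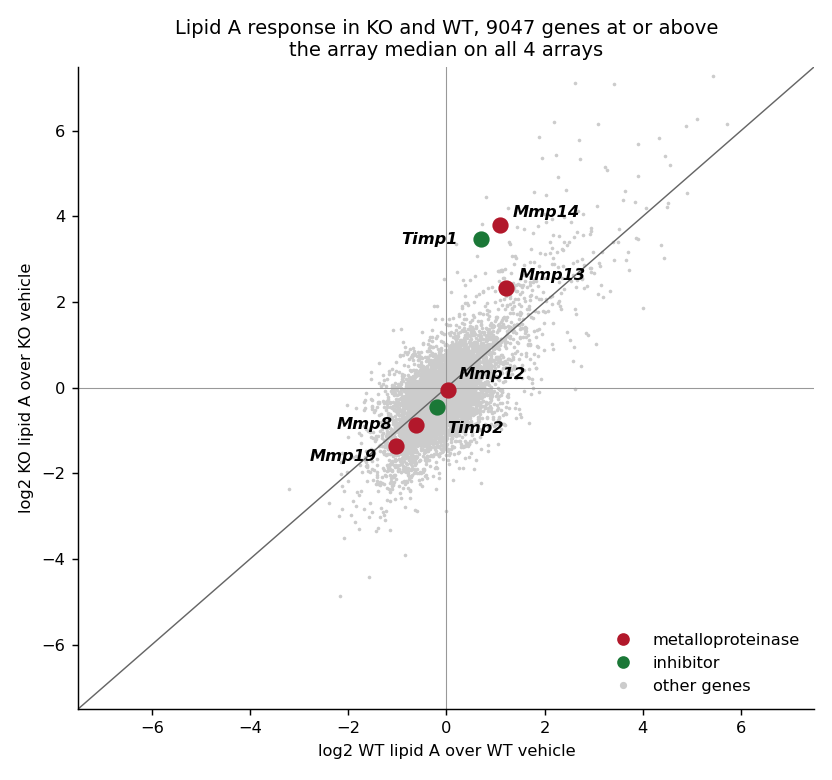
Log2 difference of lipid A over vehicle in KO (vertical axis) and in WT (horizontal axis) for 9047 genes at or above the median on all 4 arrays, with 5 metalloproteinases in red, 2 inhibitors in green and the line of equal responses. Mmp14, Timp1 and Mmp13 lie above the line, with 3.81, 3.48 and 2.34 in KO and 1.10, 0.70 and 1.22 in WT.

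Mmp19 encodes a secreted MMP that cuts basement membrane proteins and is found in many tissues. The brighter of its 2 probe sets gave 682 in KO lipid A and 553 in WT lipid A, and 1757 in KO vehicle and 1125 in WT vehicle. Both lipid A arrays were below both vehicle arrays, by 2.58-fold in KO and 2.03-fold in WT. The other probe set gave 346 in KO lipid A and 221 in WT lipid A, and 495 in KO vehicle and 313 in WT vehicle, with a smaller ratio of 1.43-fold in KO and 1.42-fold in WT. The WT call thus rests on 1 probe set just past the threshold, and it was lost with quantile normalization. Between genotypes Mmp19 was higher in KO by 1.23-fold under lipid A and 1.56-fold under vehicle, and by 1.57-fold and 1.58-fold with the other probe set. By the brighter probe set the log2 difference under lipid A, 0.30, was within the spread between probe sets of a gene (0.41). That under vehicle went from 0.64 to 0.27 with each array divided by its median, within the spread (0.42).

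Among the inhibitors, Timp1 differed between genotypes under lipid A. Timp1 is a secreted inhibitor of most MMPs, is also a growth factor and is inducible by cytokines of the interleukin-6 family in several cell types. Its single probe set gave 1741 in KO lipid A and 269 in WT lipid A, and 156 in KO vehicle and 166 in WT vehicle. The KO lipid A array stood alone above the other three, and the vehicle arrays were within 1.07-fold of each other. Timp1 was 6.48-fold higher in KO than in WT under lipid A, and lipid A over vehicle was 11.2-fold in KO and 1.62-fold in WT, a difference between the responses of 2.79 on the log2 scale. Mmp14 and Timp1 thus gave similar excess responses in KO, from a low KO vehicle signal for Mmp14 and from an even one for Timp1.

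Timp2 is made constitutively by many cells and both inhibits MMPs and bridges Mmp14 to the Mmp2 proenzyme. Of its 6 probe sets 5 were above background on all 4 arrays, and the brightest gave 16076 in KO lipid A and 15213 in WT lipid A, and 22146 in KO vehicle and 17456 in WT vehicle. All 5 were lower with lipid A than with vehicle in each genotype, but by different amounts. The ratios were 1.38-fold lower in KO and 1.15-fold lower in WT for the brightest, and 2.73-fold to 3.86-fold lower in KO and 1.41-fold to 2.92-fold lower in WT for the other 4. By the brightest probe set Timp2 did not pass 2-fold in KO or in WT, and by the median over all of its probe sets it was 1.78 lower on the log2 scale in KO, past the threshold. Under vehicle all 5 were higher in KO, by 1.25-fold to 1.73-fold, to be read beside the log2 shift of 0.37 between the array medians. The brightest turned to -0.027 on the log2 scale with each array divided by its median, and another, at 0.32, was also below that shift. Under lipid A 3 were higher and 2 lower, by no more than 1.59-fold.

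Timp3 encodes the inhibitor that binds to the extracellular matrix and also blocks ADAM proteases such as Adam17. Its brightest probe set gave 37.9 in KO lipid A and 54.2 in WT lipid A, and 64.3 in KO vehicle and 60.9 in WT vehicle, each below the median of its array. Of the 4 probe sets 1 reached the median, in WT lipid A (122) and KO vehicle (100.02), and gave 11.7 in KO lipid A and 13.4 in WT vehicle. No level of Timp3 can be given at this sensitivity. Fibroblasts and mesothelium are a usual source of Timp3, and of their 11 listed markers 6 reached the median in KO lipid A and 6 in WT lipid A, and 5 in KO vehicle and 6 in WT vehicle, with summed signals of 953 and 1643 under lipid A (KO and WT) and 991 and 1869 under vehicle (KO and WT). The mesothelial markers Upk3b, Wt1 and Krt19 were below the median on all 4 arrays, while Msln reached it in KO (83.3 in KO lipid A and 45.2 in WT lipid A, and 119 in KO vehicle and 6.70 in WT vehicle) and Krt8 in KO lipid A (150.3, with 60.4 in WT lipid A). By the measured ratio 0 of 8 detected markers were past 3-fold under lipid A. Under vehicle 1 of 7, Msln, was higher in KO and 3 were lower, Dcn, Lum and Pdgfra. The lower bounds of Msln and Pdgfra were 1.83-fold and 2.25-fold, and Lum kept no direction against the median. Col1a2, Col3a1 and Dcn, above background on all 4 arrays, were lower in KO under each treatment, and Col1a1 under lipid A only.

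The arrays on which the members were high can be compared with other genes by the Euclidean distance of log2 signals over the 4 arrays, each gene centred on its own mean, with 9040 other genes above background on all 4 arrays. Closest to Mmp14 were Met, the hepatocyte growth factor receptor, at a distance of 0.31, the C-type lectin Clec4e at 0.59 and the chemokine Cxcl16 at 0.997. Met gave 10502 in KO lipid A and 18467 in WT lipid A, and 568 in KO vehicle and 7735 in WT vehicle, so that it too was low in KO vehicle alone. Closest to Timp1 were the chemokine Ccl9 at 0.30, Osm, which encodes oncostatin M, at 0.58 and the sphingosine kinase Sphk1 at 0.66, and Ccl9 gave 42799 in KO lipid A against 6909 in WT lipid A, with 5044 in KO vehicle and 4504 in WT vehicle.

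Closest to Mmp8 were Hal, which encodes histidine ammonia-lyase, at 0.56, the secreted serine protease Htra1 at 0.58 and the glutathione transferase Gstm2 at 0.72. Htra1, which degrades matrix proteins as well, gave 84.0 in KO lipid A and 663 in WT lipid A, and 115 in KO vehicle and 790 in WT vehicle. Mmp13 had no close match, with Plac8 at 1.33, the metallothionein Mt2 at 1.47 and Ms4a4b at 1.70. The closest to Mmp12 were Mus81 at 0.011, Uqcrb at 0.015 and Psmc3 at 0.029, those to Mmp19 were Lpxn at 0.050, Pick1 at 0.11 and Bag3 at 0.13, and those to Timp2 were Ttl at 0.034, Crybg3 at 0.034 and Kcp at 0.041. Between members, Mmp12 and Timp2 were closest, at 0.33, and Mmp8 and Mmp13 farthest apart, at 7.23. The distance grows with the size of the differences, so genes with nearly even signals are close to each other by it, as Mmp12 and Timp2 are.

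The MMP genes outside the 9 gave little signal. Of the 17 listed 12 had a probe set of their own, 6 reached the median on any array and 0 on all 4, and their highest signal was 152, for Mmp17 in KO vehicle. Under lipid A 2 of 4 detected were called lower in KO by the measured ratio, Mmp2 and Mmp23, each with a background signal in KO and a lower bound under 3-fold, of 1.76-fold and 1.29-fold. Under vehicle 1 of 2 detected was called higher in KO by the measured ratio, Mmp17, against a background signal in WT and with a lower bound of 2.33-fold. Of the MMP inhibitors and partners under lipid A, 7 were detected, with Timp4 called higher and Reck and Lcn2 lower in KO. The calls of Timp4 (78.6 in KO lipid A) and Reck (81.4 in WT lipid A) each rest on a signal just above the array median against a background one, with lower bounds of 1.05-fold and 1.07-fold. Under vehicle Lcn2 was the only 1 of 6 past 3-fold. Cd44, a hyaluronan receptor that docks Mmp9 and Mmp14 at the cell surface, gave 28704 in KO lipid A and 16417 in WT lipid A, and 12547 in KO vehicle and 8841 in WT vehicle and was not past 3-fold in either genotype comparison.

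Plasmin can activate several MMP proenzymes, and of the plasminogen activation genes 0 of 7 detected were past 3-fold in KO lipid A over WT lipid A and 1 of 7, Serpinb2, in KO vehicle over WT vehicle. Serpinb2, an inhibitor of plasminogen activators, gave 21260 in KO lipid A and 8164 in WT lipid A, and 384 in KO vehicle and 1256 in WT vehicle. It was 3.27-fold lower in KO under vehicle and 2.60-fold higher under lipid A, and lipid A over vehicle was 55.4-fold in KO and 6.50-fold in WT. Plaur, the urokinase receptor, was 2.67-fold higher with lipid A in KO (11253 against 4214) and 1.43-fold in WT (5204 against 3642). Plau, which encodes urokinase, was 3.82-fold higher with lipid A in WT (2267 against 593) and 1.16-fold in KO (1228 against 1061).

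Of the ADAM and ADAMTS proteases, relatives of the MMPs that shed membrane proteins or cut proteoglycans, 1 of 11 detected was called higher in KO lipid A by the measured ratio and 1 lower, and neither passed 3-fold by its lower bound. Adamts4, an aggrecanase, gave 221 in KO lipid A against a background signal of 38.8 in WT lipid A, or at least 2.95-fold, and Adamts5 gave 23.7 against 109, or at least 1.44-fold lower. A further probe set of Adamts5, above background on both lipid A arrays, gave 84.1 in KO and 91.8 in WT, or 1.09-fold lower. Under vehicle 2 of 13 were called higher and 1 lower by the measured ratio. Of these, Adam8 was above background in both genotypes, at 8206 in KO vehicle and 2075 in WT vehicle, or 3.95-fold. The 8 cathepsins, lysosomal proteases of macrophages, were all detected and 0 of 8 were past a threshold in any of the 4 comparisons, the farthest being Ctsk, with 14190 in KO lipid A against 29630 in WT lipid A, or 2.09-fold lower.

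Of the matrix genes, which are substrates of these enzymes, 2 of 15 detected were called higher in KO lipid A by the measured ratio and 2 lower, and 1 of 14 was called higher in KO vehicle and 3 lower. The call of Col5a2 upwards under lipid A, those of Col6a1 and Lamb1 downwards under lipid A and those of Col4a2 and Lum downwards under vehicle each rest on 1 background signal. The lower bounds under lipid A were 1.19-fold, 1.38-fold and 1.04-fold, and for Col4a2 and Lum no direction remains against the median. Fn1, which encodes fibronectin, was the only one above background in both genotypes to pass it upwards. It gave 6768 in KO lipid A and 1344 in WT lipid A, and 5636 in KO vehicle and 1035 in WT vehicle, or 5.03-fold higher under lipid A and 5.44-fold under vehicle, so that, like Mmp13, its KO arrays were above its WT arrays. A further probe set of Fn1 was at background except in KO vehicle. Dcn, the proteoglycan decorin made by fibroblasts, was 4.02-fold lower in KO under vehicle (138 against 553) and 2.87-fold lower under lipid A (172 against 496).

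Some markers of other cells were also higher in KO, as Mmp13 and Fn1 were. By the measured ratio 3 of 4 detected markers of resident large peritoneal macrophages, Gata6, Icam2 and Vsig4, were past 3-fold upwards under each treatment, while Cxcl13 gave 126 in KO lipid A and 86.0 in WT lipid A, and 85.7 in KO vehicle and 109 in WT vehicle. Of the B cell markers Cd79a (by the measured ratio only), Cd79b and Ms4a1 were past it upwards, 3 of 3 detected under lipid A and 3 of 4 under vehicle, where Pax5 was not past it. The 5 resident macrophage markers summed to 1781 in KO lipid A and 551 in WT lipid A, and to 2150.4 in KO vehicle and 557 in WT vehicle, with Timd4 below the median on all 4 arrays and Gata6 below it in WT lipid A. The 4 B cell markers with a probe set summed to 3793 in KO lipid A and 241 in WT lipid A, and to 3586 in KO vehicle and 335 in WT vehicle. The 4 T and NK cell markers with a probe set summed to 354 in KO lipid A and 187 in WT lipid A, and to 382 in KO vehicle and 146 in WT vehicle, and the 7 eosinophil and mast cell markers to 427 in KO lipid A and 157 in WT lipid A, and to 513 in KO vehicle and 374 in WT vehicle, sums that hold background signals. The part of these cells in the differences of Mmp13 and Fn1 was not tested.

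**Figure D5:**
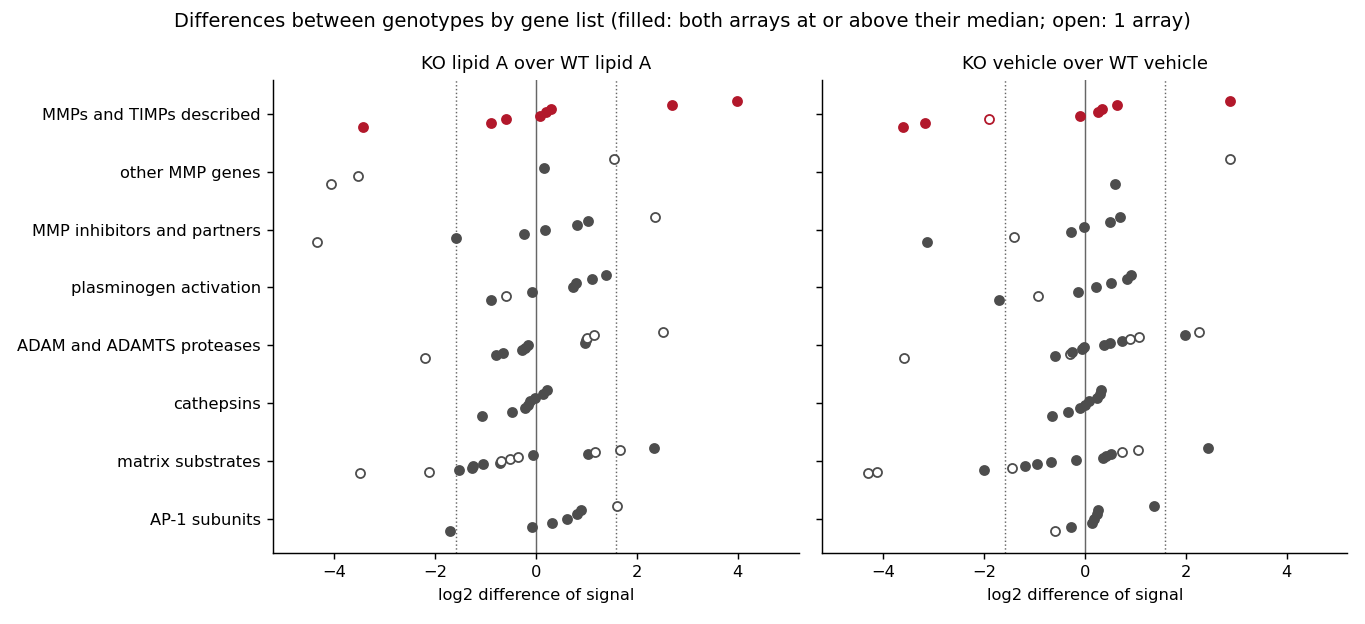
KO over WT log2 differences, under lipid A and under vehicle, for the detected genes of 8 lists, with 1 point per gene, filled where both arrays were at or above their median and open where 1 was, and dotted lines at 3-fold. The cathepsins lie between -1.06 and 0.22 under lipid A, while the MMPs and TIMPs described spread from -3.43 to 3.99.

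As a group the 8 detected members had a median log2 difference of 0.13 in KO lipid A over WT lipid A, where all detected genes had -0.013, and of 0.087 in KO vehicle over WT vehicle, where all had 0.097. In KO lipid A over KO vehicle their median was 0.34, with -0.20 over all detected genes, and in WT lipid A over WT vehicle -0.088, with -0.082 over all. Large differences of single genes ran in opposite directions, as for Mmp13 and Mmp8.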

How the data were processed

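The authors deposited 1 table of probe set intensity values for Affymetrix mouse expression arrays, as linear signals from 4 samples. The sources used here name no summarising software, and a scaling of each whole array was inferred from a mean of 500.004 on every array after trimming 2% at each end. No further normalization was applied, and present and increase calls were not used. The number of arrays limits the precision. Of 45101 probe sets 64 controls were left out, and 34945 have 1 symbol in the platform annotation, 932 several and 9160 none. The brightest probe set by mean log2 signal stood for a gene. Thresholds are those of the study methods, and detection was judged against the array median. The members and gene lists were chosen with earlier results of these data known. The text names every member, up to 4 called genes of a list in a comparison, and the 3 genes closest in pattern, and Cd44, Ctsk and the cell markers were named after their values were seen. Windows came from RefSeq (GRCm38.p6). The alternatives were 2 other scalings, other filters, a floor, other summaries of probe sets and other thresholds. The calling step was tested on simulated data. The known folds were added in KO lipid A only, to genes well above background, so finding folds near background was not tested. Python 3.11.15, numpy 2.4.6, pandas 2.3.3, SciPy 1.17.1 and matplotlib 3.10.9 were used.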

Additional observations from a re-analysis of the deposited data

Results flagged for a closer look

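For 3 genes a difference had opposite signs in the 2 settings in which it was measured, with 1 array per condition and no test of the difference. The KO over WT difference of Timp1 was 2.70 on the log2 scale under lipid A and -0.091 under vehicle, 2.79 apart, and the value under vehicle is within the spread between probe sets of a gene (0.42), so its sign is not settled. The lipid A over vehicle difference of Mmp9 was 0.73 in KO and -0.59 in WT, 1.32 apart by the brighter probe set, whose KO vehicle signal was at background, and with that signal raised to the array median the KO difference turned to -0.083. That of Mmp12 was -0.053 in KO and 0.023 in WT, -0.077 apart, which is within the spread between probe sets of a gene, and with each array divided by its median both signs turned (0.098 in KO and -0.18 in WT).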

How the results depend on the processing

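The counts of members past a threshold stayed within 1.5 times the reported ones under all alternatives, except for WT lipid A over WT vehicle, where 0 of 8 passed at 3-fold and 6 of 8 at 1.5-fold in place of 3 at 2-fold. In that comparison Mmp14 fell below 2-fold with each array divided by its median, and Mmp19 with quantile normalization and with the median over probe sets. Mmp13 and Timp1 stayed past the threshold upwards and Mmp8 downwards in KO lipid A over WT lipid A under each alternative, and Mmp13 upwards and Mmp8 and Mmp14 downwards in KO vehicle over WT vehicle. In KO lipid A over KO vehicle Mmp19 no longer passed with the median over probe sets, where Timp2 passed downwards, or at 3-fold. The median over probe sets also put Mmp9 past the threshold downwards in KO lipid A over WT lipid A. The call of Mmp9 under vehicle was lost with both arrays required at their median, with signals raised to the median, with the median over probe sets and at 4-fold. Of 160 log2 differences of members under other scalings, floors and probe set summaries, 153 moved by less than the spread between probe sets and 7 by more, those of Mmp9 and Timp2, and 0 called ones changed sign. The KO minus WT responses, an alternative added after seeing the data, moved by more than that spread in 2 of 40 cases, both Mmp9. Over all genes the counts moved with the filter on low signals. Those of the members had little room to move with it. By their brightest probe set, 7 of the 9 members were at or above the median on all 4 arrays, against 49.7% of all genes. In KO lipid A over WT lipid A 783 genes were higher and 707 lower as reported, 117 and 61 with both arrays at their median, and 2020 and 1960 with no filter. In KO vehicle over WT vehicle there were 754 higher and 438 lower, against 94 and 66 and against 2263 and 1539. In KO lipid A over KO vehicle there were 1378 higher and 1966 lower, against 567 and 979 and against 2955 and 3858, and in WT lipid A over WT vehicle 1429 higher and 1084 lower, against 517 and 380 and against 3274 and 2699. With signals below the median raised to it, the counts lay between those with both arrays at their median and the reported ones. Signals below the array median limit what can be said of Mmp9 in KO and of Timp3. No paired analysis was possible because each group has 1 array.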
